A study of Mus musculus with 6 samples.

Results

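The genes described are the monoamine and muscarinic receptor genes of the mouse cervical spinal cord: the serotonin receptors (symbols Htr followed by a number), the adrenergic receptors (Adra and Adrb), the dopamine receptors (Drd1 to Drd5) and the muscarinic acetylcholine receptors (Chrm1 to Chrm5). Choosing protein-coding genes by these symbols gave 33 genes of the 54532 listed, and measured values played no part in the choice. They are 14 serotonin, 9 adrenergic, 5 dopamine and 5 muscarinic receptor genes. Of these, 28 reached a mean of 0.1 FPKM over the 6 libraries and were tested, among 21369 genes tested in all. FPKM counts fragments per length of exon and per library size, so that levels of different genes can be set against each other on it.

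RNA was sequenced from 6 C57BL/6 mice, 1 library per mouse. The 3 mice with allergic contact dermatitis (ACD) had 20 µl of 1% squaric acid dibutylester (SADBE), a contact allergen, dissolved in acetone put on the shaved abdomen on 3 days, and after an interval of 5 days the same dose on the shaved nape on 3 days. The 3 control mice had acetone alone as the vehicle, and the labels do not make clear whether their abdomen was treated with SADBE as well. The comparison addresses which transcripts of the cervical cord, whose segments supply the nape, differ when that skin is inflamed.

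The cord makes little serotonin, noradrenaline or dopamine of its own. Axons that descend from the raphe nuclei and the ventral medulla release serotonin in it, axons from the locus coeruleus and neighbouring cell groups release noradrenaline, and axons from the hypothalamus release dopamine. They act on itch and pain by way of receptors on dorsal horn neurons, on the terminals of sensory fibres and on glia. Acetylcholine in the cord comes mostly from neurons within it, and muscarinic receptors take part in spinal pain relief. Most of these receptors cross the membrane several times and couple to a G protein: Gi/o lowers cyclic AMP and opens potassium channels, Gs raises cyclic AMP, and Gq releases calcium through phospholipase C. Htr3a and Htr3b instead code for subunits of a cation channel.

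In most of these G protein-coupled receptors an Asp-Arg-Tyr motif at the inner end of a membrane segment takes part in the coupling. A stretch of 45 coding bases around the codons of that motif is shown here for the 5 receptor genes with the highest control levels and for the alpha-1 receptors, whose levels are set against each other further on. Capitals mark the Asp, Arg and Tyr codons, and the bases are those of the GENCODE M21 transcripts (GRCm38), read 5′ to 3′ along the coding strand.
Chrm2: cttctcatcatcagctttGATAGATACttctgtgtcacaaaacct
Adra2a: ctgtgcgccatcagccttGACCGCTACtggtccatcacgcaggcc
Htr2c: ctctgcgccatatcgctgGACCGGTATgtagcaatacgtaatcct
Htr7: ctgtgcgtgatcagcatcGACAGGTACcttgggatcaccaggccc
Drd2: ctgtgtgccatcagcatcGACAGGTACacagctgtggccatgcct
Adra1a: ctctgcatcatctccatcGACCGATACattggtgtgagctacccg
Adra1b: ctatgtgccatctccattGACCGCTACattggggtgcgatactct
Adra1d: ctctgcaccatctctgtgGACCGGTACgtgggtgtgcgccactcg

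The motif was found in 30 of the 33 coding sequences. It was not found in the channel genes Htr3a and Htr3b, nor in Drd4, which has Asp-Arg-Phe codons in the same window. Of the 30 genes, 13 use CGC for the arginine, 8 use AGG, 3 each use AGA and CGG, 2 use CGT, and Adra1a alone uses CGA. Over the 45 bases shown, Adra1a and Adra1b share 34 bases, Adra1a and Adra1d share 35, and Adra1b and Adra1d share 32.

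The libraries had a depth of 17346315 to 20245576 reads in ACD and 16916600 to 18583992 in control, recovered from the steps between low values, and 23511 to 24194 genes with a value above 0 in ACD, against 24982 to 25870 in control. A single read in a transcript of 2 kb was worth 0.0247 to 0.0288 FPKM in ACD and 0.0269 to 0.0296 FPKM in control. In bulk cord, fewer cells of a type and less RNA per cell cannot be told apart.

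In the control cords 17 of the 33 receptor genes had a mean of at least 1 FPKM, 12 lay between 0.1 and 1 FPKM, and 4 lay under 0.1 FPKM. The 5 highest were the muscarinic Chrm2, the adrenergic Adra2a, the serotonin receptors Htr2c and Htr7, and the dopamine receptor Drd2, so that each of the 4 families had a gene among them. In the order of control means, the ranges of the 3 control values overlapped for 27 of the 32 neighbouring pairs. The 5 pairs that did not overlap were Htr2c above Htr7, Htr7 above Drd2, Adra1b above Htr2a, Htr6 above Chrm5, and Adra2b above Htr3b. The first 3 places, held by Chrm2, Adra2a and Htr2c, were therefore not separated by the spread between mice. Rescaling each library to TPM moved no gene in this order, and leaving out any 1 control moved a gene by at most 2 places.

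**Figure D1:**
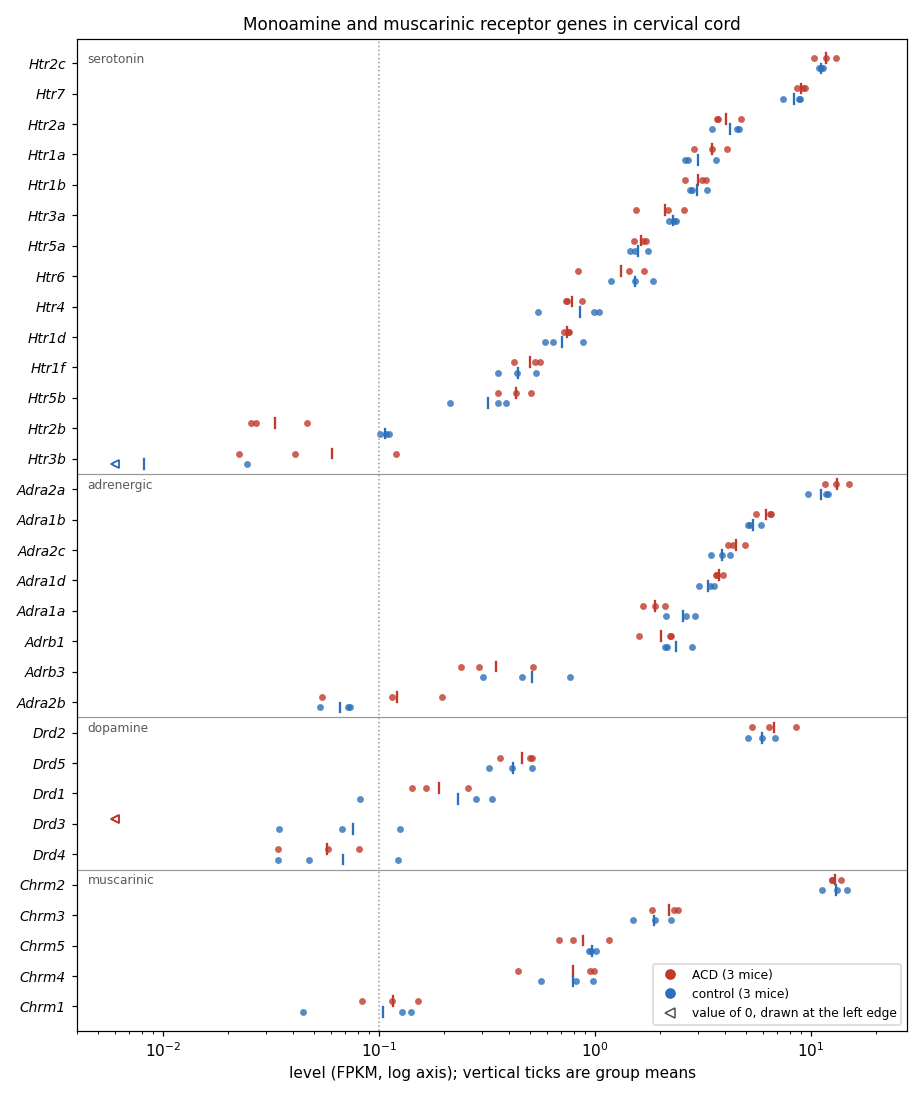
Level of the receptor genes in every mouse, in FPKM on a log axis, by family and in the order of the control means; dots are mice, ACD in red above control in blue, short vertical lines are group means, and the dotted line is the 0.1 FPKM used as the limit for testing. The values run from 0, drawn as triangles at the left edge, to 15.0 FPKM for Adra2a in ACD mouse 3, and in most genes the dots of ACD and control lie among each other.

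Among the serotonin receptors, Htr2c and Htr7 stood apart from the rest. Htr2c, which is Gq-coupled, had 10.4, 11.7 and 13.0 FPKM in ACD mice 1 to 3, against 10.9, 11.1 and 11.3 FPKM in control mice 1 to 3. Its control values lay within the range of the ACD values. Htr7, a Gs-coupled receptor, had 9.16, 8.63 and 9.34 FPKM in ACD and 8.77, 8.90 and 7.46 FPKM in control. Only control mouse 3 lay below all ACD values of Htr7. In ACD, Htr2c made up 30.0 ± 1.64% of the summed serotonin receptor level and Htr7 23.3 ± 1.38%; in control these shares were 29.6 ± 1.08% and 22.3 ± 1.85% (SD, n = 3 each).

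Htr2a, the Gq-coupled relative of Htr2c, had 4.74, 3.71 and 3.68 FPKM in ACD, against 3.49, 4.66 and 4.56 FPKM in control. Each group held 1 mouse on the side of the other, ACD mouse 1 high and control mouse 1 low. Htr1a, the Gi/o-coupled receptor through which serotonin has been reported in mice to facilitate itch neurons that carry the gastrin-releasing peptide receptor, had 2.88, 3.47 and 4.11 FPKM in ACD and 3.65, 2.62 and 2.71 FPKM in control. Control mouse 1 lay between ACD mice 2 and 3. Htr1b, a Gi/o-coupled receptor of axon terminals, had 3.26, 2.61 and 3.12 FPKM in ACD and 3.32, 2.76 and 2.81 FPKM in control, and its groups spanned nearly the same range.

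Htr3a, the channel subunit without which the others do not form a working receptor, had 1.55, 2.18 and 2.60 FPKM in ACD, against 2.33, 2.38 and 2.21 FPKM in control. The control mice lay close together and the ACD mice on both sides of them. Htr5a, which is Gi/o-coupled, had 1.51, 1.66 and 1.72 FPKM in ACD and 1.53, 1.45 and 1.77 FPKM in control. Htr6, which is Gs-coupled, had 0.837, 1.43 and 1.68 FPKM in ACD and 1.87, 1.54 and 1.18 FPKM in control. The groups of both genes overlapped, with ACD mouse 1 lowest of all for Htr6.

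Htr4, a Gs-coupled receptor, had 0.743, 0.732 and 0.869 FPKM in ACD, against 1.04, 0.543 and 0.991 FPKM in control. Htr1d, Gi/o-coupled and a target of the triptan drugs, had 0.720, 0.756 and 0.751 FPKM in ACD and 0.591, 0.639 and 0.883 FPKM in control. For both, the ACD values lay inside the control range. Htr1f, Gi/o-coupled too, averaged 0.503 ± 0.0725 FPKM in ACD and 0.442 ± 0.0911 FPKM in control, and Htr5b 0.433 ± 0.0755 FPKM in ACD and 0.320 ± 0.0935 FPKM in control (SD, n = 3 each), with overlapping groups.

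Htr2b and Htr3b were too low to be tested. Htr2b, which is Gq-coupled, had 0.0271, 0.0464 and 0.0257 FPKM in ACD, against 0.111, 0.101 and 0.108 FPKM in control. These values rest on 1, 2 and 1 reads in ACD and on 4 reads in each control, so that the groups did not overlap but each value is a handful of reads. Htr3b had 5, 2 and 1 reads in ACD and 1, 0 and 0 reads in control. A count of 0, with 3 reads as the limit it allows, leaves room for up to 0.0670 FPKM of Htr3b in control mouse 2 and 0.0717 FPKM in control mouse 3, and such limits cover counting error only.

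Of the adrenergic receptors, those coupled to Gi/o and Gq held most of the summed level. Adra2a, a Gi/o-coupled receptor and the target of clonidine and dexmedetomidine, which relieve pain when given at the cord, had 11.6, 13.1 and 15.0 FPKM in ACD, against 11.7, 9.74 and 12 FPKM in control. ACD mice 2 and 3 lay above all controls and ACD mouse 1 just under control mouse 1. Adra2a made up 40.4 ± 2.77% of the summed adrenergic receptor level in ACD and 36.9 ± 1.01% in control (SD, n = 3 each). Adra2c, also Gi/o-coupled, had 4.13, 4.37 and 4.95 FPKM in ACD and 4.24, 3.47 and 3.88 FPKM in control. Control mouse 1 reached into the ACD range of Adra2c, and the other controls lay below it.

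The alpha-1 receptors are Gq-coupled. Adra1b had 6.44, 5.56 and 6.51 FPKM in ACD, against 5.24, 5.09 and 5.88 FPKM in control, and overlapped through control mouse 3. Adra1d had 3.64, 3.90 and 3.68 FPKM in ACD and 3.42, 3.03 and 3.55 FPKM in control, and its 3 ACD values lay above its 3 control values. Adra1a, the receptor through which, in mice, noradrenaline of descending axons has been reported to act on astrocytes of the superficial dorsal horn, had 2.12, 1.67 and 1.90 FPKM in ACD, against 2.65, 2.14 and 2.92 FPKM in control. Its 3 ACD values lay below its 3 control values, with ACD mouse 1 just under control mouse 2. In reads these were 321, 295 and 303 in ACD and 391, 347 and 442 in control. Adra1a took place 12 in the order of the control means and place 15 in that of the ACD means.

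The beta receptors are Gs-coupled. Adrb1 had 2.22, 1.61 and 2.26 FPKM in ACD, against 2.82, 2.16 and 2.11 FPKM in control. Control mouse 1 was the highest of the 6 mice for Adrb1, and its groups overlapped. Adrb3 had 0.239, 0.293 and 0.518 FPKM in ACD and 0.770, 0.303 and 0.461 FPKM in control, again with control mouse 1 highest and overlapping groups. Adra2b was not tested, at 0.122 ± 0.0715 FPKM in ACD and 0.0664 ± 0.0111 FPKM in control (SD, n = 3 each).

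**Figure D2:**
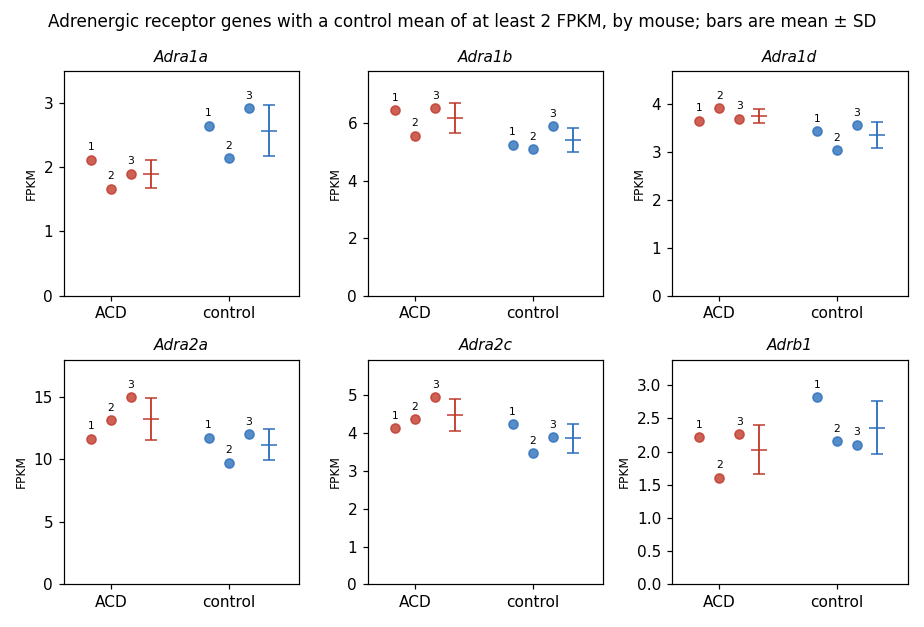
Level in FPKM of the 6 adrenergic receptor genes with a control mean of at least 2 FPKM, by mouse, with ACD in red left of control in blue; dots are mice with their number, bars are mean ± SD, and each axis starts at 0. Adra1a is the gene whose 3 ACD values all lie below its control values, and Adra1d the one whose 3 ACD values all lie above.

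The dopamine receptors came down to Drd2, a Gi/o-coupled receptor, which had 5.36, 6.42 and 8.50 FPKM in ACD, against 6.80, 5.09 and 5.95 FPKM in control. The range of its control values lay within that of ACD but for control mouse 2. Drd2 made up 90.2 ± 2.68% of the summed dopamine receptor level in ACD and 88.1 ± 2.76% in control (SD, n = 3 each). The Gs-coupled receptors had overlapping groups, Drd5 at 0.459 ± 0.0825 FPKM in ACD and 0.416 ± 0.094 FPKM in control, and Drd1 at 0.189 ± 0.0613 FPKM in ACD and 0.232 ± 0.133 FPKM in control (SD, n = 3 each). Drd3, which is Gi/o-coupled, had no read in any ACD mouse, against 1, 4 and 2 reads in control mice 1 to 3, or 0.0345, 0.126 and 0.0674 FPKM. A count of 0 leaves room for 0.0866 to 0.101 FPKM of Drd3 in the ACD libraries, and no fold is given. Drd4 had 2 to 5 reads in ACD and 2 to 7 in control.

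Chrm2 was the highest muscarinic receptor gene. It codes for a Gi/o-coupled receptor that restrains transmitter release, and had 13.8, 12.5 and 12.6 FPKM in ACD, against 11.3, 13.2 and 14.8 FPKM in control. The ACD values lay inside the control range, and Chrm2 made up 76.5 ± 4.19% of the summed muscarinic level in ACD and 77.5 ± 4.61% in control (SD, n = 3 each). Chrm3, which is Gq-coupled, had 1.83, 2.43 and 2.33 FPKM in ACD and 2.26, 1.51 and 1.90 FPKM in control. Chrm5, Gq-coupled too, had 0.793, 0.680 and 1.162 FPKM in ACD and 0.961, 0.942 and 1.01 FPKM in control. Chrm4, which is Gi/o-coupled, had 0.440, 0.995 and 0.949 FPKM in ACD and 0.985, 0.822 and 0.561 FPKM in control. All 3 had overlapping groups, as had Chrm1, a Gq-coupled receptor known for its high level in the forebrain, which here had 0.117 ± 0.034 FPKM in ACD and 0.104 ± 0.0523 FPKM in control (SD, n = 3 each).

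Summed by family, the serotonin receptors had 38.9 ± 2.72 FPKM in ACD and 37.5 ± 0.697 FPKM in control (SD, n = 3 each). The adrenergic receptors summed to 32.7 ± 2.40 FPKM in ACD and 30.2 ± 2.94 FPKM in control, and the muscarinic receptors to 16.9 ± 0.230 FPKM in ACD and 16.8 ± 1.35 FPKM in control. The dopamine receptors were the smallest family, at 7.47 ± 1.54 FPKM in ACD and 6.74 ± 0.802 FPKM in control. In each family the groups' sums overlapped, and the difference of the means was smaller than the larger of both SDs.

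None of the 28 receptor genes tested passed an adjusted p of 0.05 by limma with Benjamini-Hochberg adjustment over all 21369 genes, against 4.34% of all genes. Their adjusted p-values ran from 0.164 to 0.979. At an unadjusted p of 0.05 there was 1 receptor gene, Adra1a, against 22.3% of all genes. A second test, voom on the recovered reads, covered 25 of the receptor genes and passed none of them, against 8.03% of all genes it tested; it had 1 at an unadjusted p of 0.05. Of the 28, Adra1d was the 1 gene with 3 ACD values above its 3 control values, against 13.1% of all genes tested, and Adra1a the 1 gene with 3 ACD values below, against 15.5%.

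The fitted differences are given as ACD minus control in log2(FPKM + 0.1), where the added 0.1 shrinks those of low genes. They ran from -0.42 for Adrb3 to 0.36 for Htr5b. Their median was 0.05, against -0.01 for all genes tested and 0.03 for the protein-coding genes among these. Adra1a was the 1 gene whose 95% interval left out 0: its difference was -0.41 ± 0.15 (SE), with an interval of -0.77 to -0.06 and a limma adjusted p of 0.164. Its unadjusted limma p was 0.0266, and it was 0.0589 to 0.0904 when ACD mouse 2, ACD mouse 3, control mouse 1 or control mouse 3 was left out. Adra2a had 0.25 ± 0.12 (SE) with an interval of -0.03 to 0.52 and a limma adjusted p of 0.277, and Adra2c had 0.21 ± 0.11 (SE) with -0.04 to 0.47. For Chrm2 the interval was -0.26 to 0.24, and for Htr2c -0.15 to 0.28. For 12 of the 28 genes the 95% interval stayed within 1.5-fold in either direction, and for 25 within 2-fold. The 3 whose interval went beyond 2-fold were Adrb3, Drd1 and Chrm1, each with a mean of 13 to 26 reads.

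**Figure D3:**
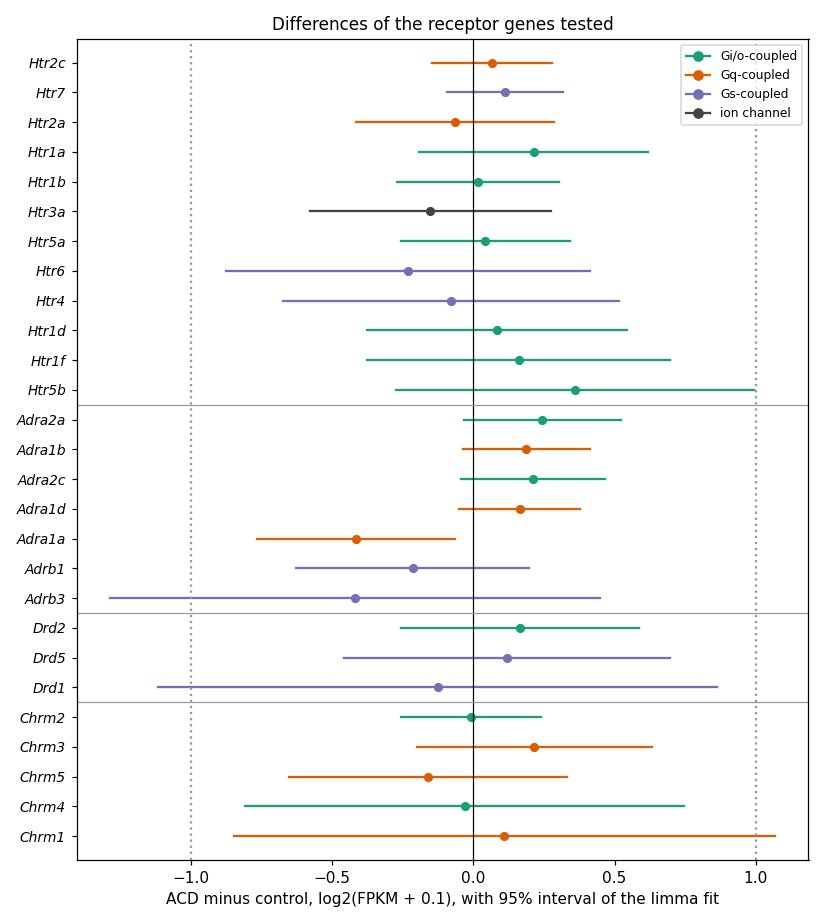
Difference of tested receptor genes, ACD minus control in log2(FPKM + 0.1), with its 95% interval from the limma fit, coloured by the G protein the receptor couples to; dotted lines mark 2-fold. The interval of Adra1a, from -0.77 to -0.06, is the one that leaves out 0, and the intervals widen towards the low genes of each family.

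Within the alpha-1 receptors the make-up differed between the groups. Adra1a made up 17.4%, 15.0% and 15.7% of the summed level of Adra1a, Adra1b and Adra1d in ACD mice 1 to 3, against 23.4%, 20.8% and 23.6% in control mice 1 to 3. The groups did not overlap, with means of 16.0 ± 1.22% in ACD and 22.6 ± 1.55% in control (SD, n = 3 each). Adra1b made up 52.2 ± 2.0% in ACD and 47.9 ± 1.65% in control, again without overlap, and Adra1d 31.8 ± 2.84% in ACD and 29.5 ± 0.753% in control, with overlap (SD, n = 3 each). The share was looked at after the values of Adra1a were seen and rests on the same reads, so no test is given.

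By coupling, 9 of the 11 tested Gi/o-coupled genes had a difference above 0, with a median of 0.16. Of the Gq-coupled genes 5 of 8 lay above 0, with a median of 0.09. Of the Gs-coupled genes 2 of 8 did, Htr7 and Drd5, with a median of -0.17. Of all genes tested 48.6% lay above 0, with a median of -0.01, and the protein-coding genes among these had a median of 0.03. With TPM scaling 7 Gi/o, 4 Gq and 2 Gs genes lay above 0, and 34.9% of all genes. With the trend along exon length and along GC content taken out, these were 10, 6 and 2 genes, and 57.4% of all genes. None of these genes passed the test by itself, and the difference between the couplings was not tested.

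The mice did not rank alike over these genes. Of the 28 tested, ACD mouse 1 had the lowest value of its group for 15 and ACD mouse 3 the highest for 16, against 31.9% and 33.6% of all genes tested. In control, mouse 2 had the lowest value for 15, against 32.3% of all genes. Markers of dorsal horn neurons ranked these mice the same way. Their sums over 12 genes were 322, 371 and 412 FPKM in ACD mice 1 to 3, against 311, 295 and 302 FPKM in control mice 1 to 3, with 1 of the 12, the opioid precursor Pdyn, higher by limma at an adjusted p of 0.017. The part of this ranking in the receptor values was not tested.

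The remaining marker lists describe what else the dissections held. Markers of spinal neurons in general summed to 648 to 685 FPKM in ACD and 582 to 662 FPKM in control, and those of motor neurons to 71.6 to 115 FPKM in ACD and 64.9 to 102 FPKM in control, with none of 9 and none of 6 past the test. For neurons that send monoamine axons to the cord, whose cell bodies lie in the brain, the 7 markers summed to 1.34 to 2.09 FPKM in ACD and 1.07 to 2.40 FPKM in control, with no marker past the test. The transporter genes of these neurons, Slc6a4 for serotonin and Slc6a2 for noradrenaline, averaged 0.0274 and 0.0192 FPKM in ACD and 0.0204 and 0.0248 FPKM in control, Slc6a4 being at 0 in control mouse 1 and Slc6a2 in ACD mouse 1 and control mouse 3. The 8 markers of primary sensory neurons summed to 22.5 to 35.3 FPKM in ACD and 18.5 to 29.5 FPKM in control, Mrgprd being at 0 in all mice, and none of them passed. The sums of the neuronal lists other than that of the dorsal horn thus overlapped between the groups.

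Among glia, markers of microglia summed to 156 to 173 FPKM in ACD and 115 to 142 FPKM in control, with C1qa and Tmem119 of 7 higher (limma adjusted p of 0.0348 and 0.0394). Those of astrocytes summed to 1506 to 1647 FPKM in ACD and 1135 to 1547 FPKM in control, with Gfap of 7 higher (limma adjusted p of 0.0332). In 3 further lists the sums did not overlap, although no marker passed. The 7 markers of the oligodendrocyte lineage summed to 5722 to 6824 FPKM in ACD and 3663 to 5678 FPKM in control, the 5 of Schwann cells to 321 to 456 FPKM in ACD and 150 to 237 FPKM in control, and the 7 of blood to 562 to 848 FPKM in ACD and 120 to 408 FPKM in control. The sums of the other 4 lists overlapped between the groups, with no marker past the test. Endothelium summed to 42.2 to 70.3 FPKM in ACD and 46.2 to 54.7 FPKM in control, pericytes and smooth muscle to 87.4 to 108 FPKM in ACD and 89.3 to 110 FPKM in control. Meningeal fibroblasts summed to 29.2 to 39.8 FPKM in ACD and 16.8 to 35.6 FPKM in control, and ependyma to 18.3 to 19.7 FPKM in ACD and 18.0 to 21.3 FPKM in control. These sums hide unlike members. The fibroblast markers Col1a1, Col1a2 and Col3a1 were higher in ACD without overlap, with differences of 0.84, 0.58 and 0.98, while Dcn and Lum overlapped. In endothelium Cldn5 had a difference of 0.45, and Flt1, Pecam1, Cdh5 and Tek had differences below 0, all with overlapping groups. The part of the 3 lists without overlap, and of the microglial and astrocyte markers, in the receptor values was not tested.

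The genes that make, move and break down the transmitters, and those that act downstream of the receptors, were described by 4 lists. No gene of these lists passed an adjusted p of 0.05, against the 4.34% of all genes given above. In synthesis, transport and breakdown, 16 of 21 genes were tested, with a median difference of 0.07. Ache, which splits acetylcholine, was the highest of the list at 43.1 ± 0.709 FPKM in ACD and 37.7 ± 5.60 FPKM in control (SD, n = 3 each). Slc18a3 and Slc5a7, the vesicle carrier of acetylcholine and the choline carrier, had 22.9 ± 5.40 and 20.8 ± 5.31 FPKM in ACD and 21.9 ± 4.62 and 23.2 ± 5.41 FPKM in control (SD, n = 3 each), differences smaller than the spread between mice.

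Of the G proteins and second messenger enzymes 29 of 30 were tested, with a median of 0.07. Prkar1a, a regulatory subunit of the cyclic AMP-dependent protein kinase, had 197, 194 and 196 FPKM in ACD, against 165, 166 and 171 FPKM in control. The groups lay apart by more than their spread, with a difference of 0.22 ± 0.057 (SE) and a limma adjusted p of 0.0765. Gnai1, a Gi alpha subunit, had 70.3 ± 2.84 FPKM in ACD and 61.1 ± 2.28 FPKM in control (SD, n = 3 each), with a limma adjusted p of 0.124. Prkar1b and the catalytic subunit Prkaca had differences of 0.17 and 0.11 with overlapping groups.

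Of the receptor kinases, arrestins and RGS proteins, which switch receptors and G proteins off, 21 genes were tested, with a median of -0.01. Grk3, a kinase that marks active receptors for arrestin, had 4.96, 5.58 and 5.61 FPKM in ACD, against 7.92, 6.71 and 7.03 FPKM in control. Its ACD values lay below the controls, with a difference of -0.42 ± 0.092 (SE) and a limma adjusted p of 0.0529, just short of the threshold. The related kinase Grk2, Rgs4 and the arrestin Arrb1 had differences of 0.15, 0.23 and 0.17, without overlap between the groups. Their limma adjusted p-values were 0.245, 0.236 and 0.233, and 13.1% of all genes tested were higher in ACD without overlap. Rgs5, also among the highest of the list, had 35.7 ± 8.70 FPKM in ACD and 38.6 ± 4.82 FPKM in control (SD, n = 3 each). Its difference was -0.13, and its groups overlapped.

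Of the histamine and trace amine receptors 3 of 5 were tested, with a median of -0.19. Hrh1, the Gq-coupled histamine receptor of the older antihistamines, had 1.35, 1.24 and 1.72 FPKM in ACD, against 1.61, 1.54 and 1.79 FPKM in control. Its groups overlapped, and its limma adjusted p was 0.514. Hrh3, a Gi/o-coupled receptor of axon terminals, was the highest of the list at 4.85 ± 0.525 FPKM in ACD and 4.69 ± 0.665 FPKM in control (SD, n = 3 each), and Hrh2 had 0.749 ± 0.0373 FPKM in ACD and 0.885 ± 0.209 FPKM in control. Hrh4 and Taar1 were listed at 0 in all 6 libraries.

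**Figure D4:**
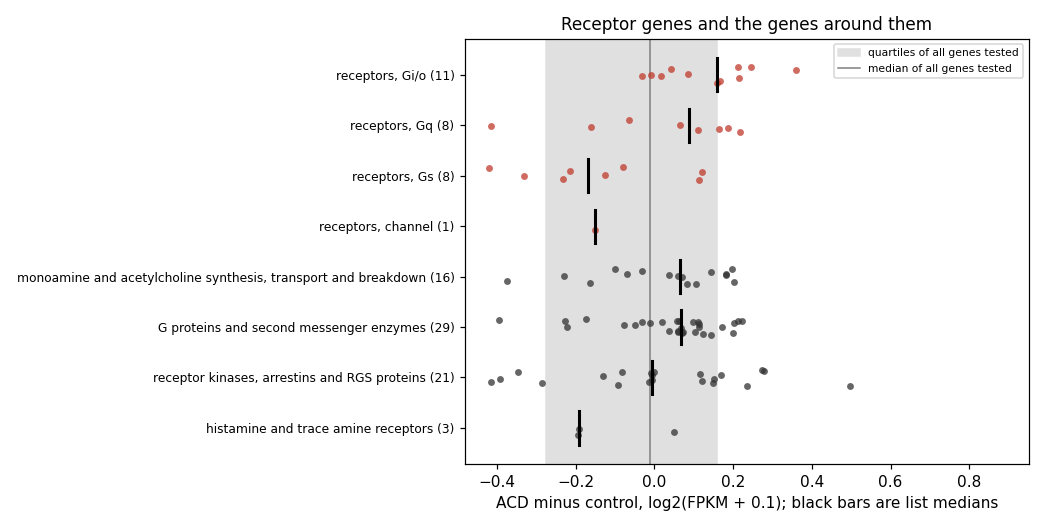
Differences, ACD minus control in log2(FPKM + 0.1), of the tested receptor genes by coupling (red) and of the tested genes of the 4 lists around them (dark grey), with the number of genes in brackets; each dot is a gene, black bars are medians, the grey band spans the quartiles of all genes tested and the grey line is their median, -0.01. The medians of the receptor groups run from -0.17 for Gs to 0.16 for Gi/o.

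In the GENCODE M21 annotation (GRCm38) Adra1a spans 66635251 to 66771168 on chromosome 14, Adra1b 43774606 to 43901210 on chromosome 11, and Adra1d 131545850 to 131562283 on chromosome 2. Adra2a lies at 54044151 to 54048982 on chromosome 19, Chrm2 at 36388084 to 36528414 on chromosome 6, Drd2 at 49340627 to 49408177 on chromosome 9, Htr7 at 35958734 to 36057507 on chromosome 19, and Htr2c at 146962513 to 147197277 on chromosome X. Exons of 7 receptor genes overlap exons of a gene on the opposite strand: Drd5 over 48.6% of its exon length, Adrb3 24.9%, Htr1b 18.0%, Htr2b 11.8% (the proteasome gene Psmd1), Adra1d 7.74%, Chrm1 5.07% and Chrm2 2.35%. Since the use of strand in counting is not given in the sources used here, reads of such pairs cannot be told apart.

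RefSeq (GRCm38.p6) gave a promoter, 250 bases before to 50 after the start, for 25 of the 33 genes. The entry was missing for Htr3a, Htr5b, Adra1a, Chrm1, Htr4, Adrb3 and Adra1d, among others. GGGCGG, searched on both strands, was in 14 of the 25 (56%), against 35.7% of the 32851 promoters of the table, and TATAAA, also on both strands, in 1 of the 25 (4%), against 13.6%. The median number of CG pairs was 13, against 7 for all promoters. Of receptor genes with a control mean of at least 1 FPKM 7 of 14 had GGGCGG, and of those below it 7 of 11. The RefSeq start lay 1108 bases from the GENCODE M21 gene start for Adra2a, the gene with TATAAA. This distance was 5060 bases for Chrm4, which had GGGCGG, and 8195 bases for Drd3. A match describes the letters of the window and says nothing of a factor.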

How the data were processed

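Cervical cord RNA of 3 ACD and 3 control mice was sequenced. The authors deposited FPKM values, 1 table per library. Per the submitters' processing notes, the tools were featureCounts 1.5.0-p3, HISAT2 2.0.5 and DESeq2 1.16.1, with the build mm10 and no role given for any. The kit and the use of strand were not given in the sources used here. Groups came from the sample descriptions. Of 54532 identifiers, 54409 matched a symbol in GENCODE M21.

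The test was limma 3.58.1 in R 4.3.3 (lmFit; eBayes, trend and robust) on log2(FPKM + 0.1), over genes whose mean reached 0.1 FPKM, Benjamini-Hochberg over all of them, two-sided, with a threshold of 0.05. Each FPKM was multiplied by its gene's exon length and by its library's denominator; 96.8% of values came out whole (within 0.05), and 97.0% of genes did in all libraries. Reads came out for 30 receptor genes, not for Adra2a, Adrb1 and Htr4. They were tested with voom and TMM (computed from its definition). The fit was tested on simulated data, where it missed many changed genes, more of them at smaller folds, and false calls exceeded the threshold's share; a gene that did not pass is thus not shown to be unchanged.

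The receptor genes, the 4 lists and the 14 marker lists were chosen with earlier results of these data known. Values of every library are given for receptor genes with a control mean of at least 0.5 FPKM or past the test, and for those below it whose groups do not overlap; the others by range and counts. Of each list all genes that passed were named, otherwise that with the smallest p, and up to 4 of the highest mean. The alternatives tried were TPM scaling, pseudocounts of 0.01 and 1, no filter, a mean of at least 1 FPKM, voom, the replicate number as a block, removal of a trend on length and GC content, eBayes without the robust setting, and leaving out each library. The values of 1 receptor gene and 1 list gene, counted in the totals, are not reported here. P-values measure the spread between 3 mice a group.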

Additional observations from a re-analysis of the deposited data

How the results depend on the processing

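No receptor gene passed under any alternative but 1: voom on the recovered reads with the replicate block passed 1, Adra1a, at -0.43 and an adjusted p of 0.0386. Adra1a kept its sign under every alternative, with adjusted p-values of 0.0386 to 0.380 (0.0715 by voom without the block, 0.157 with the block on FPKM). The replicate numbers did not pair the mice: deviations of mice with the same number correlated at -0.028, 0.015 and 0.003, and 1 of 6 libraries correlated best with its own number. Of all genes 927 passed (386 higher, 541 lower). This count was 556 without a filter, 1649 with voom, 1560 with voom and the replicate block, 181 with the replicate block, and 1397 with the length and GC trend removed (908 higher, 489 lower); TPM scaling gave 900 (205 higher, 695 lower). Leaving out a library gave 180 to 627: 274, 287 and 180 without ACD mice 1 to 3, and 244, 579 and 627 without control mice 1 to 3. The cause of these changes was not tested, and the fits without a library also had fewer mice.

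Of 431 values of receptor genes under an alternative 397 kept sign and side of the threshold, 1 passed and 33 changed sign, in 14 genes. Chrm2 was 0.0025 with voom, 0.0012 with voom and the block, and 0.11 with the trend removed, against -0.01. Htr2c was -0.030, Htr1b -0.079 and Htr5a -0.050 with TPM scaling. Htr2a was 0.049 with the trend removed and Chrm4 0.032 with voom and the block. Leaving out a library gave -0.11 to 0.084 for Chrm2, -0.013 to 0.15 for Htr2c, -0.0096 to 0.32 for Drd2, -0.20 to 0.0089 for Htr2a, -0.044 to 0.11 for Htr1b, -0.31 to 0.045 for Htr3a, -0.013 to 0.12 for Htr5a, -0.42 to 0.042 for Htr6, -0.34 to 0.070 for Htr4, -0.23 to 0.30 for Chrm4, -0.016 to 0.24 for Htr1d, -0.014 to 0.25 for Drd5, -0.51 to 0.11 for Drd1 and -0.12 to 0.25 for Chrm1. The other 14 genes tested kept their sign. The widest intervals were those of Drd1, Chrm1, Adrb3 and Chrm4, each under 30 mean reads. Reads alone did not order the rest: Htr6, at 60.5 mean reads, had a wider interval than Htr5b, at 13.3.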
